A study of Mus musculus with 67 samples.

Results

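The genes described here are the phase II conjugation enzymes of the mouse: the glutathione, glucuronosyl and sulfo transferases whose gene symbol in the array's probe-to-gene table begins with Gst followed by a, k, m, o, p, t or z, with Ugt followed by 1, 2 or 3, or with Sult followed by a digit. The rule found 43 probe sets for 42 genes, out of 38385 probe sets and 19147 named genes on the array. They comprise 17 glutathione transferases, 9 glucuronosyltransferases and 16 sulfotransferases, and only Sult1b1 is read by more than 1 probe set (2). No Ugt1 gene was found, and Gsta1, Gstm1 and Gstp1 were not among the members. Counts by family therefore cover the members found, not whole families. All 43 probe sets were matched to the RefSeq gene table through their Entrez identifiers.

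Phase II enzymes attach a small polar group to drugs, hormones, bile acids and products of lipid oxidation, so that these can leave the cell and the body. Glutathione transferases couple electrophiles to the tripeptide glutathione, glucuronosyltransferases transfer a sugar from a UDP-sugar, and sulfotransferases transfer sulfate from the activated donor PAPS. Liver holds the broadest set of these enzymes. Kidney proximal tubule, heart and vessel wall express narrower sets, and many members lie in clusters of recently duplicated genes.

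The study took aorta, heart, kidney and liver from male mice aged 12 weeks of 3 inbred strains. BPH/2J mice are hypertensive, with a stated systolic pressure of 142 ± 5 mmHg. BPN/3J mice are normotensive, at 94 ± 6 mmHg, and BPL/1J mice are hypotensive, at 69 ± 1.7 mmHg. Aorta was measured on 9 BPH, 5 BPN and 9 BPL arrays, heart and liver on 5 arrays per strain, and kidney on 5 BPH, 5 BPN and 4 BPL arrays. The labels give no treatment and no transgene. Each strain is a single inbred line, so pressure and every other inherited difference between the lines cannot be told apart. The design text gives 5 mice per strain, while aorta has 9 arrays for 2 of the 3 strains, and no label says which animal an array came from. Hence p-values here reflect only how much arrays vary, which may in part be technical. Aorta RNA was amplified with another kit than RNA of the other tissues, so levels in aorta are set beside those elsewhere only as a description. RNA came from whole tissue, in which fewer cells of a type and less RNA per cell cannot be told apart.

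Values are log2 of the deposited, normalised probe-set intensity, and a difference is a difference of mean log2 values, with its standard error (SE). A member was called when its adjusted p in limma's moderated test (Benjamini-Hochberg adjustment over all 38385 probe sets of the tissue) was below 0.05, and "rose", "fell" and "changed" are used only of such members. BPN is the reference in 2 of the 3 comparisons, BPH against BPN and BPL against BPN, which therefore share the BPN arrays. A fold is given only where both strain means lie above the highest lower quartile of any array of that tissue. Array medians lay between 24.6 and 26.6 intensity units in aorta and heart, between 29.8 and 31.5 in kidney and between 13.6 and 14.4 in liver. The mean of a member exceeded the highest array median for 32 of 43 probe sets in liver, 24 in kidney, 20 in heart and 17 in aorta.

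A few arrays carried markers of another organ. The mean log2 level of 9 hepatocyte markers (secreted plasma proteins and liver enzymes) was 3.83 above the tissue mean on aorta array BPL 26, and between 1.19 and 1.33 above it on heart arrays BPH 1, BPL 4 and BPN 1. No other array of these tissues exceeded its tissue mean by more than 0.24 in aorta or 0.39 in heart. None of the 9 markers lay below the lower quartile in heart. The adrenal marker level stood 1.87 to 2.42 above the mean on kidney arrays BPL 1, BPN 4 and BPN 5. Several members that are abundant in liver followed the first set. On all 3 of those heart arrays, 7 of 43 member probe sets lay above every other heart array, 5 of them by more than 1. On aorta array BPL 26, 12 of 43 lay above every other aorta array, 9 of them by more than 1. No member did so on the 3 kidney arrays. The share of all probe sets that did so was not counted, so these counts have no background beside them. Heart Ugt2b1, for example, measured 6.86 to 7.43 on the 3 arrays and 4.66 to 5.78 on the other 12. Results described below that lost their call without these arrays are given with and without them. In kidney, the hepatocyte marker level ranged from 4.98 to 5.12 in BPN, from 5.41 to 5.64 in BPH and from 5.56 to 5.76 in BPL. Its part in the kidney results was not tested.

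**Figure D1:**
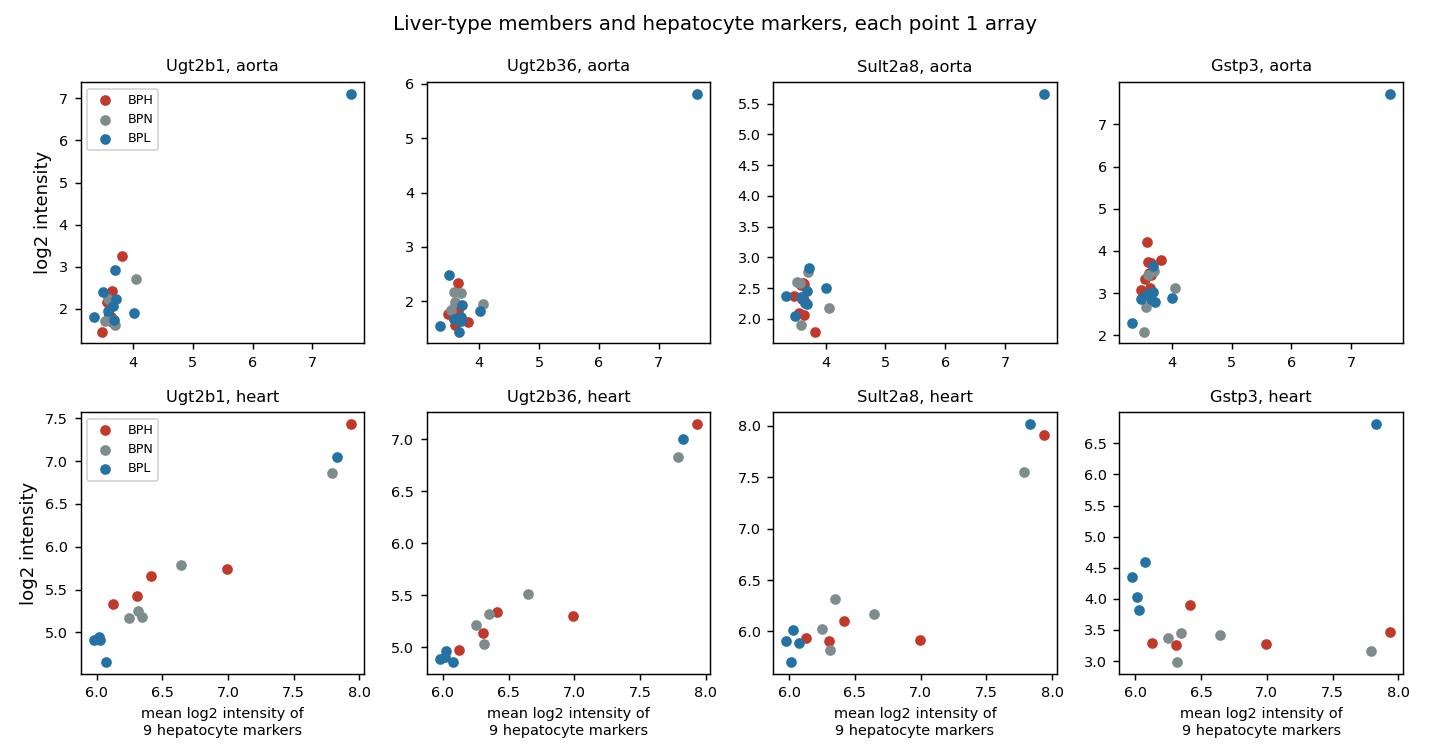
Each point is 1 array of aorta (top) or heart (bottom), coloured by strain. The x axis gives the mean log2 intensity of 9 hepatocyte markers and the y axis the log2 intensity of Ugt2b1, Ugt2b36, Sult2a8 or Gstp3. A single aorta array and 3 heart arrays stand apart to the right, and Ugt2b1, Ugt2b36 and Sult2a8 are highest on them. Gstp3 is high on the BPL arrays among them, at 7.71 in aorta and 6.81 in heart.

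In all, 27 of the 42 genes changed in at least 1 of the 12 comparisons (4 tissues, 3 pairs of strains), counted on the brighter probe set of each gene. That is 64.3% of the members, beside 44.5% of all 19147 named genes. Gstk1 was called in all 4 tissues, 4 genes in 3 tissues, 9 in 2 and 13 in 1. Of all named genes, 2.17% were called in 4 tissues, 5.46% in 3, 11.6% in 2 and 25.3% in 1. In liver, 13 of 43 member probe sets differed between BPH and BPN (5 higher and 8 lower in BPH), beside 7.14% of all probe sets. In the BPL against BPN comparison of liver 8 members changed (4 up, 4 down; 7.47% of all), and between BPH and BPL 10 did (3 higher and 7 lower in BPH; 5.77% of all). The first of these counts was 8 without liver array BPH 1, BPH 4 or BPH 5 and 7 without BPN 4, and the third was 6 without BPL 3.

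Kidney had 4 called members in BPH against BPN (2 up, 2 down; 7.05% of all probe sets), 7 in BPL against BPN (5 up, 2 down; 6.24% of all) and 9 in BPH against BPL (3 higher and 6 lower in BPH; 6.33% of all). Without the arrays high in adrenal markers these counts were 4, 6 and 8. In heart 3 members fell and none rose in BPH (7.02% of all), 4 rose and 3 fell in BPL (9.34% of all), and 1 was higher and 5 were lower in BPH than in BPL (8.57% of all). Without the 3 heart arrays high in hepatocyte markers, the heart counts were 2, 7 and 7. Leaving out heart array BPN 3 or BPN 5 reduced the 7 to 4. In aorta 6 members rose and none fell in BPH (9.15% of all), 2 rose and 1 fell in BPL (10.3% of all), and 3 were higher in BPH than in BPL (11% of all). Without aorta array BPL 26 the last count was 5. The share of members called in aorta was 14% in the first comparison and 6.98% in each of the others, which is below the background of those.

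The median difference over the 43 members was small everywhere, lying between -0.04 (liver, BPH against BPN) and 0.08 (aorta, BPL against BPN). Over all probe sets the median was 0.00 and 0.01 in the same comparisons. By family the medians were wider apart. The median over the 17 glutathione transferases was 0.20 in BPH and 0.18 in BPL aorta against BPN, where 4 rose and none fell in BPH and 2 rose and 1 fell in BPL. In heart it was -0.15 for BPH against BPL, with none higher and 5 lower in BPH. The median over the 9 glucuronosyltransferases was -0.26 for BPH against BPL in kidney, with 1 higher and 3 lower in BPH. The strain difference itself differed between liver and kidney for 7 members in BPH against BPN (4.2% of all probe sets) and for 9 in BPL against BPN (4.74% of all).

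**Figure D2:**
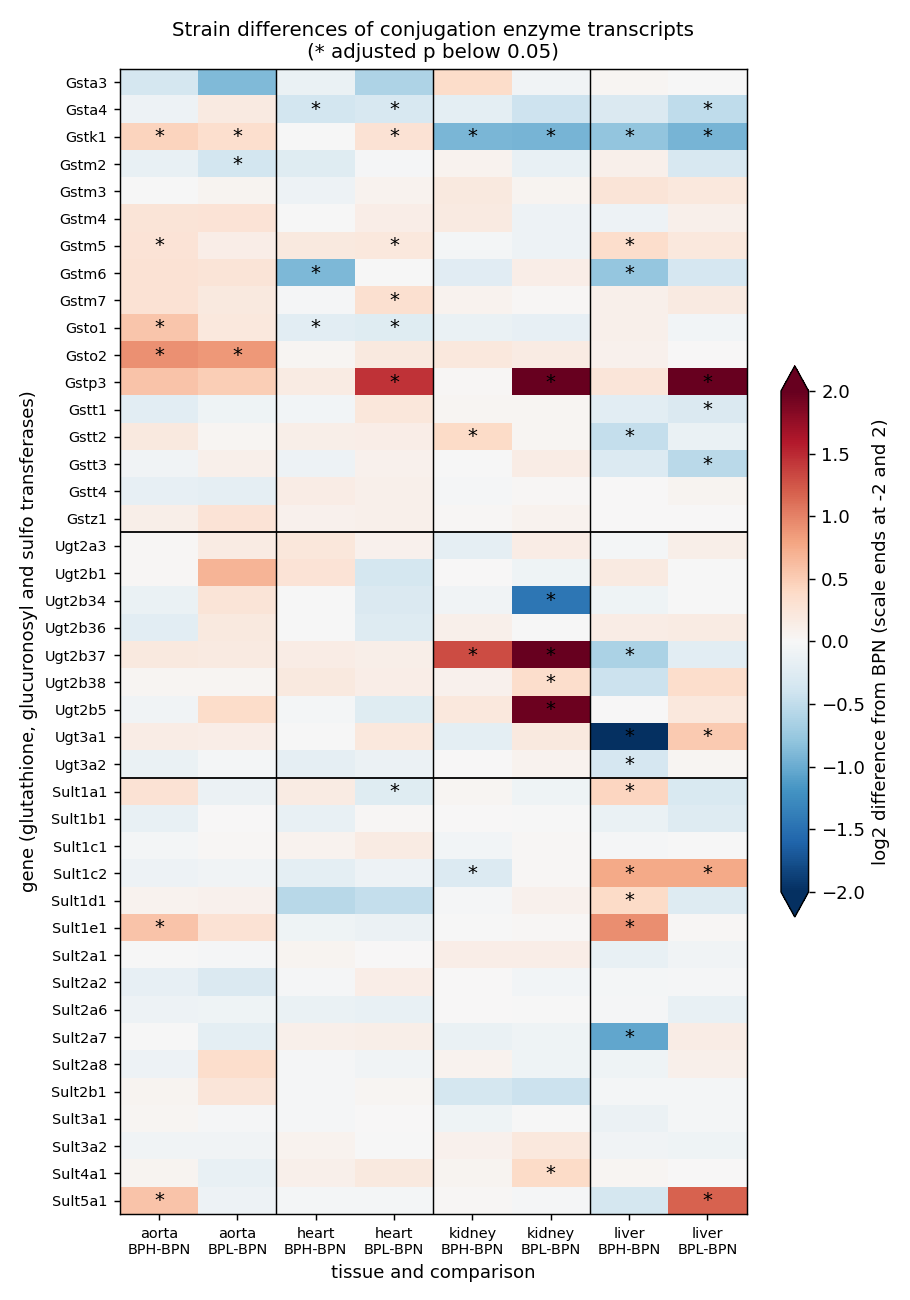
Each row is 1 of the 42 genes, ordered by family, and each column is the log2 difference of BPH or BPL from BPN in 1 tissue. Red is higher and blue lower than BPN, colours saturate at 2 in either direction, and a star marks an adjusted p below 0.05. Gstk1 is starred in all 4 tissues, and the deepest colours are those of Gstp3 (kidney and liver, BPL), Ugt2b37 (kidney, BPL) and Ugt3a1 (liver, BPH).

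Among the glutathione transferases, Gstp3, a member of the pi class, showed the largest strain difference of any member. In liver the 5 BPL arrays read 12.69, 12.65, 12.72, 12.55 and 12.72. The BPN arrays read 7.71, 7.32, 7.41, 7.55 and 7.08, and the BPH arrays 7.52, 7.77, 7.60, 7.67 and 7.72. Every BPL array thus lay far above every array of the other strains. The rise in BPL over BPN was 5.25 ± 0.09 (SE), a 38.1-fold higher intensity (adjusted p = 1.32e-17), while BPH differed from BPN by 0.24 ± 0.09 (adjusted p = 0.155).

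Kidney showed the same order at a lower level. The 4 BPL arrays read 7.74, 7.98, 7.69 and 7.52, against 3.48 to 4.31 in BPN and 3.46 to 4.08 in BPH. BPL exceeded BPN by 3.92 ± 0.17 (adjusted p = 1.81e-10), or by 2.92 with a pseudocount of 16. Both strain means lay above the highest lower quartile of any kidney array (3.64), but 3 of the 5 BPN arrays lay below it. A fold is therefore left out here too, though the rule by means would allow it. BPH exceeded BPN by 0.02 ± 0.16. The BPL difference was larger in liver than in kidney by 1.33 ± 0.20 (adjusted p = 3.27e-05), but not in a joint fit of all 12 groups (adjusted p = 0.47).

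In heart, Gstp3 read 4.03, 3.83, 4.35, 6.81 and 4.59 on the BPL arrays, 2.99 to 3.46 in BPN and 3.25 to 3.90 in BPH. The BPN mean lay below the highest lower quartile of any heart array (3.32), so no fold is given. The array at 6.81, BPL 4, is one of those high in hepatocyte markers. BPL exceeded BPN by 1.44 ± 0.38 with that array (adjusted p = 0.0231) and by 0.92 without it (adjusted p = 0.0009). Without all 3 heart arrays of that kind the difference was 0.89 (adjusted p = 0.00487). The call was lost without BPN 5 (1.37, adjusted p = 0.0552), with a pseudocount of 16 (0.80, adjusted p = 0.0963) and with a trended, robust prior (adjusted p = 0.0655). Heart arrays BPH 1 and BPN 1, equally high in hepatocyte markers, read 3.47 and 3.16. In aorta no difference was called, with Gstp3 between 2.30 and 3.63 on the other 8 BPL arrays and at 7.71 on BPL 26.

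**Figure D3:**
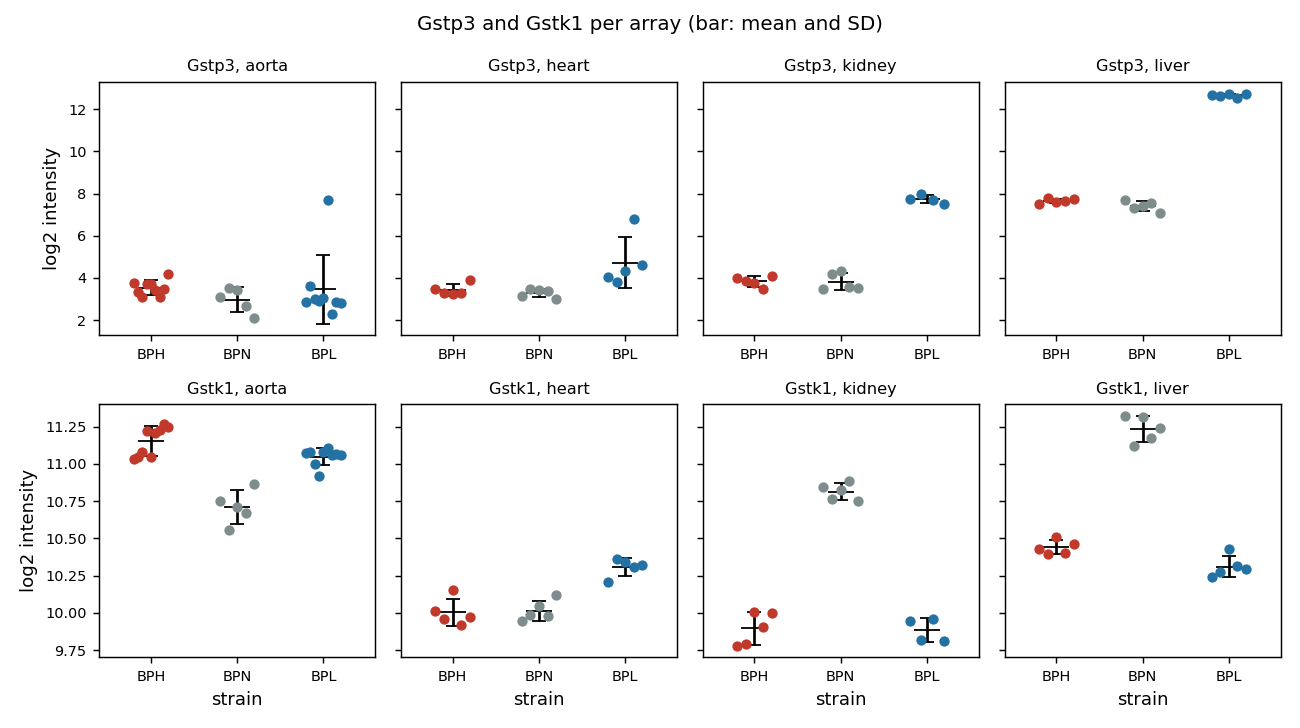
Log2 intensity of Gstp3 (top) and Gstk1 (bottom) on every array, by tissue and strain, with the mean and SD of each group as black bars. BPL arrays sit above all others for Gstp3 in kidney and liver. For Gstk1, BPN is above both other strains in kidney and liver and below both in aorta.

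Gstk1, the kappa-class enzyme of mitochondria and peroxisomes, separated BPN from both other strains, and in opposite directions by tissue. In kidney the BPN arrays read 10.84, 10.76, 10.83, 10.89 and 10.75, the BPH arrays 9.78 to 10.01 with a median of 9.90, and the BPL arrays 9.94, 9.82, 9.96 and 9.81. The groups do not overlap: all 9 BPH and BPL arrays lay below the lowest BPN array. The transcript fell 1.89-fold in BPH (-0.92 ± 0.06, adjusted p = 5.99e-08) and 1.91-fold in BPL (-0.93 ± 0.07, adjusted p = 9.58e-08). BPH and BPL differed by 0.01 ± 0.07.

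In liver Gstk1 read 11.12 to 11.32 in BPN, 10.40 to 10.51 in BPH and 10.24 to 10.43 in BPL, again without overlap of BPN with the others. It fell by 0.80 ± 0.06 in BPH (adjusted p = 4.25e-08) and by 0.93 ± 0.06 in BPL (adjusted p = 4.35e-09). In aorta the order was turned. The lowest, median and highest arrays were 10.55, 10.71 and 10.87 in BPN, 11.03, 11.21 and 11.27 in BPH, and 10.92, 11.07 and 11.11 in BPL. Gstk1 rose there by 0.44 ± 0.07 in BPH (adjusted p = 3.32e-05) and by 0.34 ± 0.07 in BPL (adjusted p = 0.000832).

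In heart only BPL departed from BPN, at 10.21 to 10.36 against 9.95 to 10.12 (a rise of 0.29 ± 0.06, adjusted p = 0.0026), and BPH read 9.92 to 10.15. The contrast between tissues was tested in fits of 2 tissues at a time, added after the values had been seen. The BPH difference was larger in aorta than in liver by 1.24 ± 0.09 (adjusted p = 1.52e-13) and than in kidney by 1.36 ± 0.09 (adjusted p = 4.86e-14). The BPL difference exceeded that of liver by 1.26 ± 0.09 in aorta (adjusted p = 6.88e-14) and by 1.22 ± 0.08 in heart (adjusted p = 1.03e-12).

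The mu class, which conjugates epoxides and other electrophiles, changed in small steps, and its genes lie together on chromosome 3. Gstm6 was the exception in size. In heart it read 4.29, 3.85, 4.19, 4.15 and 3.59 in BPH against 5.30, 4.82, 4.75, 4.92 and 4.75 in BPN. All BPH arrays were below all BPN and BPL arrays, and the fall was 0.89 ± 0.13 against BPN (1.85-fold, adjusted p = 0.000148). Its size depended on the offset, at -0.51 with a pseudocount of 16.

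In liver Gstm6 fell in BPH from a BPN range of 9.55 to 10.29 to one of 8.91 to 9.28 (-0.77 ± 0.12, adjusted p = 0.00022). The kidney difference was -0.23 ± 0.09 (adjusted p = 0.175), and the fall in liver exceeded it by 0.55 ± 0.15 (adjusted p = 0.0369). That call was lost in 7 of 15 single-array omissions and in a joint fit of all groups (adjusted p = 0.205). Gstm5 moved the other way in BPH, by 0.28 ± 0.06 in aorta (adjusted p = 0.00416) and 0.35 ± 0.07 in liver (adjusted p = 0.00435). In liver its BPH arrays read 7.49 to 7.84 and its BPN arrays 7.14 to 7.38. Heart Gstm7 rose in BPL by 0.32 ± 0.07 (adjusted p = 0.00471), with 8.91 to 9.09 in BPL against 8.52 to 8.70 in BPN. Calls for Gstm2 in aorta BPL (-0.37 ± 0.12, adjusted p = 0.0416), Gstm5 in heart BPL (0.21 ± 0.06, adjusted p = 0.0291) and Gstm4 in kidney BPH against BPL (0.27 ± 0.07, adjusted p = 0.025) were each lost in 5 or more of the single-array omissions. Without the heart arrays high in hepatocyte markers, the BPL difference of heart Gstm5 was 0.17 and not called (adjusted p = 0.188). Gstm3 changed in no comparison.

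The omega class, which reduces dehydroascorbate and methylated arsenicals, rose in aorta. Gsto2 arrays there had a lowest, median and highest value of 5.96, 6.49 and 6.84 in BPN, 6.71, 7.34 and 7.72 in BPH and 6.90, 7.13 and 7.73 in BPL. All BPL arrays and all but 1 of the BPH arrays lay above every BPN array. The rise was 0.91 ± 0.16 in BPH (1.88-fold, adjusted p = 0.000313) and 0.87 ± 0.16 in BPL (1.83-fold, adjusted p = 0.000459). Its neighbour Gsto1 rose in aorta of BPH alone among the comparisons with BPN (0.55 ± 0.11, adjusted p = 0.000998), from 10.22 to 10.51 in BPN to 10.61 to 11.18 in BPH.

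Gsto1 in BPH aorta was also above BPL, by 0.34 ± 0.09 (adjusted p = 0.0126). In heart Gsto1 was lower in both BPH (-0.22 ± 0.06, adjusted p = 0.04) and BPL (-0.24 ± 0.06, adjusted p = 0.0198). These heart calls were lost without the arrays high in hepatocyte markers (adjusted p = 0.185 and 0.109), and in a joint fit of all groups (0.273 and 0.155). The BPL call was also lost without BPN 2 (-0.23, adjusted p = 0.0506) or BPN 3 (-0.22, adjusted p = 0.0525).

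Gsta4, which conjugates the lipid peroxidation product 4-hydroxynonenal, was lower in heart of both strains. Its heart arrays read 9.74 to 10.08 in BPH, 9.88 to 10.05 in BPL and 10.18 to 10.39 in BPN, with no overlap with BPN. The falls were 0.36 ± 0.07 in BPH (adjusted p = 0.00165) and 0.32 ± 0.07 in BPL (adjusted p = 0.00392). In liver Gsta4 fell in BPL by 0.51 ± 0.09 (adjusted p = 0.00099), from 9.84 to 10.20 in BPN to 9.25 to 9.81. In the joint fit of all groups none of these 3 calls held (adjusted p = 0.65, 0.627 and 0.176).

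Theta-class genes, which act on small halogenated compounds, differed between liver and kidney. Gstt2 in kidney read 10.64, 10.50, 10.68, 10.52 and 10.43 in BPH against 10.11 to 10.24 in BPN and 10.16 to 10.26 in BPL, a rise of 0.39 ± 0.06 in BPH (adjusted p = 0.000477). In liver it fell in BPH by 0.48 ± 0.11 (adjusted p = 0.00827), from 8.05 to 8.69 in BPN to 7.68 to 8.15. The difference between the tissues was -0.87 ± 0.13 (adjusted p = 2.49e-05). In liver of BPL, Gstt1 fell by 0.29 ± 0.06 (adjusted p = 0.00419) and Gstt3 by 0.55 ± 0.14 (adjusted p = 0.0158; -0.47 and 0.051 without BPN 1). Heart Gstt1 was lower in BPH than in BPL (-0.29 ± 0.08, adjusted p = 0.0286), a call lost in 6 of 15 single-array omissions. Gsta3, Gstt4 and Gstz1, the maleylacetoacetate isomerase of tyrosine breakdown, changed nowhere. Their largest difference was -0.89 ± 0.36 (Gsta3, aorta, BPL against BPN, adjusted p = 0.132). Gsta3 read 10.66 on aorta array BPL 26, which is high in hepatocyte markers, and 7.67 to 9.83 on the other aorta arrays.

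Of the 9 glucuronosyltransferases, 4 were called in kidney of BPL against BPN (6.24% of all probe sets) and 3 in liver of BPH against BPN (7.14% of all). Those in liver were Ugt2b37, Ugt3a1 and Ugt3a2, where the Ugt3 genes are counted by gene family. None of the 9 was called in aorta or heart, where 9.15% to 11% and 7.02% to 9.34% of all probe sets were. For 9 probe sets this is close to the background. The means of 8 of the 9 in aorta and 3 in heart lay below the highest lower quartile of any array of the tissue. The 7 measured Ugt2 genes lie close together on chromosome 5, in the order Ugt2b34, Ugt2b1, Ugt2b36, Ugt2b5, Ugt2b37, Ugt2a3 and Ugt2b38. Genes between them were not looked at. They encode enzymes that act on steroids, bile acids and drugs. In BPL kidney Ugt2b5, Ugt2b37 and Ugt2b38 rose and Ugt2b34 fell. The sequences just upstream of these 4 genes are shown to set the 3 that rose beside the 1 that fell. They are the 250 bases before the RefSeq transcript start on GRCm38.p6, and capitals mark the HNF1 core TTAATNATT (N is any base; AATAATTAA is a match on the opposite strand):
Ugt2b37, chr5:87254789-87255038, minus strand: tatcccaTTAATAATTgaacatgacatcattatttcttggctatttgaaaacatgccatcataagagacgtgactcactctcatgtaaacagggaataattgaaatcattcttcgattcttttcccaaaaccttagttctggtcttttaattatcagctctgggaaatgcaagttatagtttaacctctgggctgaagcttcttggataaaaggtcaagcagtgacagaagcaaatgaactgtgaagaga
Ugt2b38, chr5:87424204-87424453, minus strand: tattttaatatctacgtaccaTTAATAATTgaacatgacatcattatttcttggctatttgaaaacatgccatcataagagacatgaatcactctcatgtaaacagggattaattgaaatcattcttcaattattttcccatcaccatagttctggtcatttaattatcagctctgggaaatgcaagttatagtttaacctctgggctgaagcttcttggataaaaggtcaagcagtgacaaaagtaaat
Ugt2b5, chr5:87140341-87140590, minus strand: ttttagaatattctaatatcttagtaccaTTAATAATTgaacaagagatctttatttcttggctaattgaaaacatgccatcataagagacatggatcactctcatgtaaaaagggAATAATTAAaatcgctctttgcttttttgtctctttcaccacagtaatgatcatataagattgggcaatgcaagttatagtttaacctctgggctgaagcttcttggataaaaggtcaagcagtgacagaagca
Ugt2b34, chr5:86906938-86907187, minus strand: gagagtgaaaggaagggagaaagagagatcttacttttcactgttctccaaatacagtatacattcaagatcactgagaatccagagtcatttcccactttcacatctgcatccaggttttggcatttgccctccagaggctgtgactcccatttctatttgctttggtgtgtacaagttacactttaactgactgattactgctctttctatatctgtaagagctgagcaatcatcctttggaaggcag

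The upstream regions of Ugt2b5, Ugt2b37 and Ugt2b38 were near copies of each other. Over the 300 bases from 250 before to 50 after the start, 95.5% of aligned bases were identical between Ugt2b37 and Ugt2b38, 90% between Ugt2b5 and Ugt2b38, and 89.5% between Ugt2b5 and Ugt2b37. Ugt2b34 shared 46.7% to 47.9% with each of them. The HNF1 core began at base -243 in Ugt2b37, -229 in Ugt2b38 and -221 in Ugt2b5, which had another match at -134. It was found in 1.47% of all 32851 RefSeq promoters of this length and in 5 of the 45 promoters of 35 members that have one. These were the near copies Ugt2b5, Ugt2b37 and Ugt2b38, which are not independent, with Sult1d1 and Sult2a6. All sequences are of the reference build, not of the strains studied. Ugt2b34, Ugt2b1, Ugt2b36 and Ugt2a3 had no match.

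HNF1 factors are homeodomain proteins of liver and kidney epithelium, and a match describes letters, not a bound site. The other motifs searched on both strands were the antioxidant response element core TGACNNNGC (3 of 45 member promoters, 12.4% of all), the short HNF1 site GTTAAT (7, 7.1%), the STAT5 palindrome TTCNNNGAA (2, 8.3%), the TATA box TATAAA (9, 13.6%) and the AHR core GCGTG (6, 32.4%). The short HNF1 site and the core share letters and can overlap. The motifs were chosen with the array results known. The array's probe sequences were not used here. How far the probe sets of these near copies read separate transcripts was therefore not tested.

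Ugt2b37 rose most. Its kidney arrays read 11.07, 11.15, 11.36 and 11.34 in BPL, 8.73, 8.85, 8.12, 9.27 and 9.20 in BPH, and 6.90, 7.38, 7.74, 7.83 and 7.78 in BPN. The 3 strains formed separate groups with BPL highest and BPN lowest. BPL exceeded BPN by 3.70 ± 0.21 (13-fold, adjusted p = 4.39e-09), and BPH exceeded BPN by 1.31 ± 0.20 (2.48-fold, adjusted p = 0.000392). BPH lay below BPL by 2.39 ± 0.21 (adjusted p = 9.94e-07).

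Ugt2b5, the neighbour of Ugt2b37, read 5.17, 5.02, 4.98 and 4.71 in BPL kidney. The BPN arrays read 2.94, 2.79, 3.14, 2.98 and 3.17 and the BPH arrays 2.93 to 3.54, which lie below the highest lower quartile of any kidney array, so that no fold is given. BPL was above BPN by 1.97 ± 0.12 (adjusted p = 1.04e-08), or 0.98 with a pseudocount of 16. Ugt2b38, bright in every strain, read 13.25 to 13.37 in BPL against 12.72 to 13.14 in BPN (0.34 ± 0.08, adjusted p = 0.017). Its call was lost without kidney array BPL 4 (0.32, adjusted p = 0.0563) and in the joint fit of all groups (adjusted p = 0.265).

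Ugt2b34, at the other end of the cluster, read 6.68, 6.65, 6.87 and 6.77 in BPL against 8.18, 8.12, 8.24, 8.35 and 8.10 in BPN and 7.87 to 8.43 in BPH. No BPL array overlapped the other strains. The fall from BPN was 1.45 ± 0.11 (2.74-fold, adjusted p = 2.37e-07), and BPH differed from BPN by -0.07 ± 0.11. Without the 3 kidney arrays high in adrenal markers the BPL differences were 3.94 for Ugt2b37, 1.95 for Ugt2b5, 0.43 for Ugt2b38 and -1.42 for Ugt2b34. Markers of nephron segments moved with these comparisons. The mean level of 10 proximal tubule markers was 12.03 to 12.08 in BPL, 11.94 to 12.00 in BPN and 11.87 to 11.96 in BPH, and 4 of the 10 were higher and 1 lower in BPL than in BPN. That of 12 distal nephron and collecting duct markers was 9.86 to 9.93 in BPL, 9.95 to 10.05 in BPN and 10.10 to 10.32 in BPH, and 3 of the 12 were lower in BPL and 6 higher and 1 lower in BPH than in BPN. Of all named genes, 7.77% were called in BPL kidney and 8.58% in BPH kidney against BPN. The part of these nephron markers in the kidney results was not tested.

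Ugt2b1 and Ugt2b36 did not pass the test in any tissue, and Ugt2a3 was called only in kidney of BPH against BPL (-0.32 ± 0.09, adjusted p = 0.0416), a call lost in 11 of 14 single-array omissions.

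**Figure D4:**
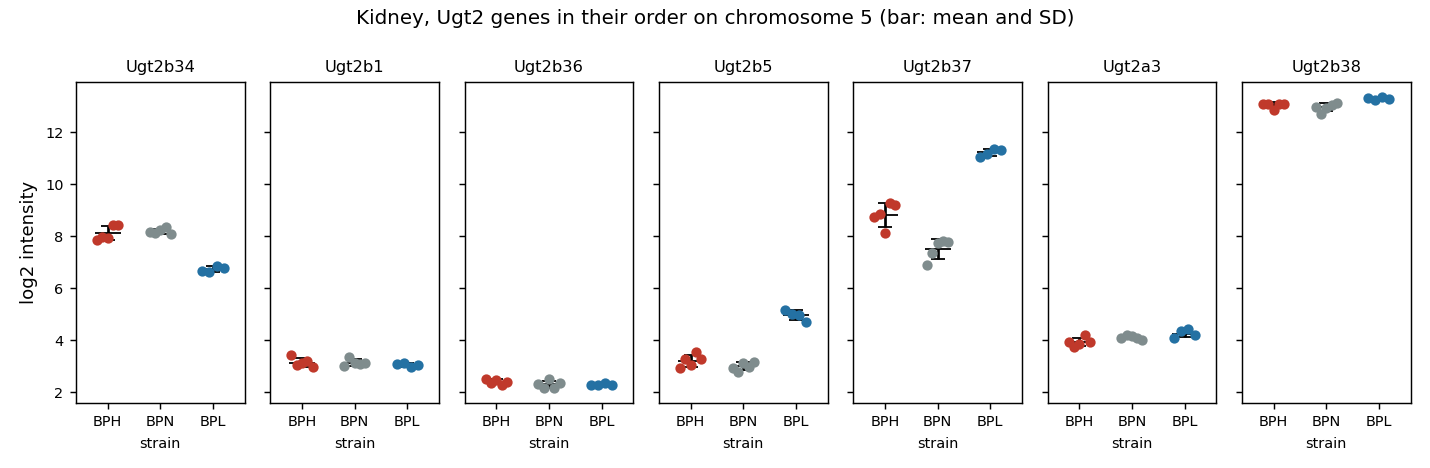
Log2 intensity in kidney of the 7 Ugt2 genes, left to right in their order on chromosome 5, for every array, with group mean and SD as black bars. BPL arrays separate from both other strains upward for Ugt2b5 and Ugt2b37 and downward for Ugt2b34. Levels of different genes are not comparable, as they come from different probe sets.

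In liver the BPL differences of the same genes were -0.21 ± 0.18 for Ugt2b37, 0.20 ± 0.08 for Ugt2b5, -0.01 ± 0.06 for Ugt2b34 and 0.36 ± 0.21 for Ugt2b38, and none passed the test. The liver minus kidney difference of the BPL effect was -3.91 ± 0.30 for Ugt2b37 (adjusted p = 5.19e-11), -1.76 ± 0.15 for Ugt2b5 (adjusted p = 3.6e-10) and 1.45 ± 0.12 for Ugt2b34 (adjusted p = 8.12e-10). In the joint fit of all groups the last 2 were not called (adjusted p = 0.16 and 0.184). For Ugt2b38 it was 0.01 ± 0.25 (adjusted p = 0.991). For BPH, Ugt2b37 rose in kidney and was lower in liver (-0.63 ± 0.18, adjusted p = 0.0422), where the call was lost in 10 of 15 single-array omissions and with a pseudocount of 16 (-0.33, adjusted p = 0.0799). The difference between the tissues was -1.93 ± 0.29 (adjusted p = 2.71e-05). Liver Ugt2b38 was lower in BPH than in BPL (-0.79 ± 0.21, adjusted p = 0.0256), a call lost in 5 of 15 omissions.

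The Ugt3 genes, whose products use UDP-sugars other than UDP-glucuronic acid, lie close together on chromosome 15 and changed in liver. Ugt3a1 read 5.70, 5.22, 5.35, 5.83 and 5.34 in BPH, 7.89, 7.36, 7.93, 7.87 and 7.40 in BPN, and 8.28, 7.91, 8.29, 8.37 and 8.23 in BPL. All BPH arrays lay well below all others. Ugt3a1 fell 4.61-fold in BPH (-2.21 ± 0.14, adjusted p = 1.43e-09) and rose in BPL by 0.53 ± 0.14 (adjusted p = 0.0201), so that BPH lay 6.64-fold below BPL (adjusted p = 4.69e-11).

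The rise of Ugt3a1 in BPL was not called without BPL 4 (0.49, adjusted p = 0.0545), BPN 2 (0.44, adjusted p = 0.0652) or BPN 5 (0.45, adjusted p = 0.0548). Its neighbour Ugt3a2 also fell in BPH liver, from 10.82 to 10.99 in BPN to 10.49 to 10.67 (-0.34 ± 0.06, adjusted p = 0.000952; 0.395 in the joint fit of all groups). In kidney the BPH differences were -0.20 for Ugt3a1 and 0.00 for Ugt3a2. The liver minus kidney difference was -2.004 ± 0.188 for Ugt3a1 (adjusted p = 6.21e-09) and -0.34 ± 0.07 for Ugt3a2 (adjusted p = 0.0016; 0.833 in the joint fit).

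**Figure D5:**
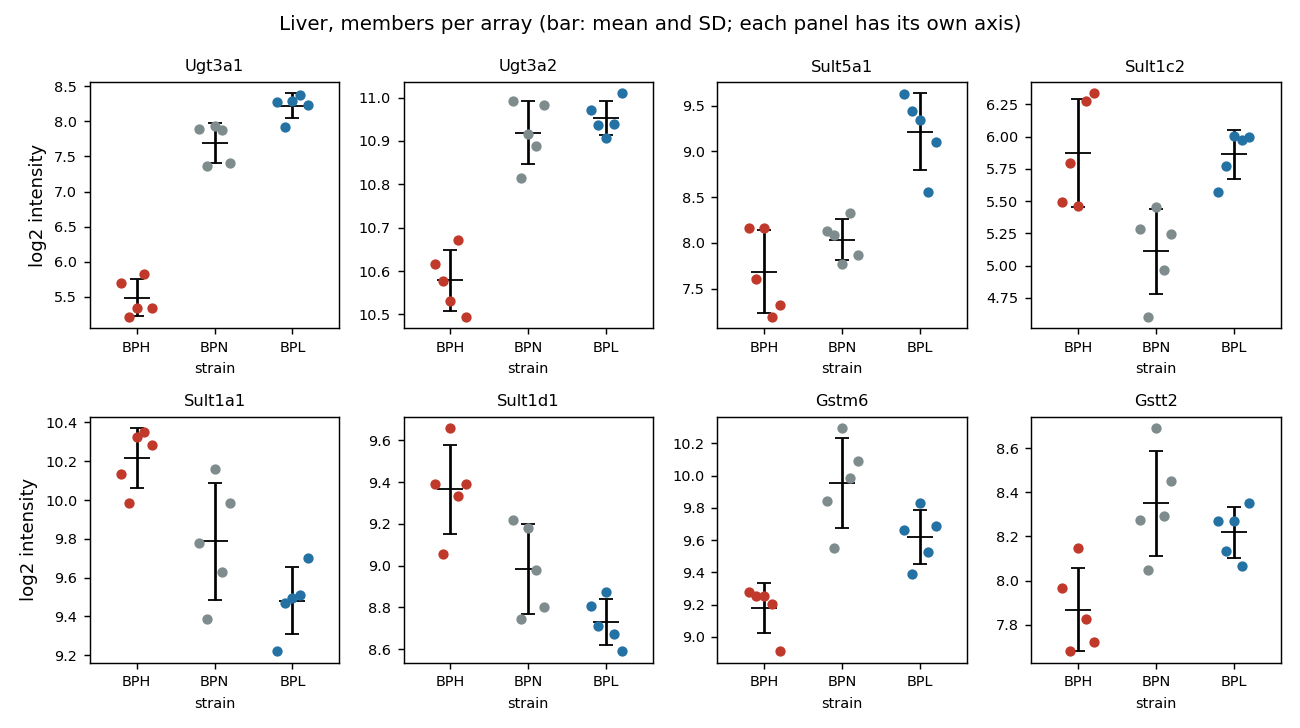
Log2 intensity in liver of 8 members on every array, by strain, with group mean and SD as black bars and a separate y axis for each gene. BPH is lowest for Ugt3a1, Ugt3a2, Gstm6 and Gstt2 and highest for Sult1a1 and Sult1d1. BPL is highest for Sult5a1, and BPN is lowest for Sult1c2.

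Of the 17 sulfotransferase probe sets, 6 were called in liver in BPH against BPN (7.14% of all probe sets) and 2 in BPL against BPN (7.47% of all). In aorta at most 2 were called in any comparison (11.8% of the 17, beside 9.15% to 11% of all probe sets). In heart and kidney at most 1 was (5.88%, beside 6.24% to 9.34% of all). These counts are close to the background. Of the 17, 12 in aorta and 11 in heart and kidney lay below the highest lower quartile, against 7 in liver. The difference between tissues in these counts was not tested. Sult1a1, the phenol sulfotransferase, separated BPH from BPL. In liver it read 10.14, 9.99, 10.33, 10.35 and 10.28 in BPH and 9.22, 9.47, 9.49, 9.51 and 9.70 in BPL, with BPN between and overlapping both, at 9.39 to 10.16. BPH exceeded BPL by 0.74 ± 0.12 (1.67-fold, adjusted p = 0.000596).

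The same order held for Sult1a1 in heart, where BPH read 7.38 to 7.58 and BPL 6.96 to 7.17 (0.40 ± 0.07, adjusted p = 0.00118), and in aorta (0.41 ± 0.09, adjusted p = 0.00165). In kidney Sult1a1 was not called. Against BPN, liver Sult1a1 was higher in BPH (0.43 ± 0.12, adjusted p = 0.0393) and heart Sult1a1 lower in BPL (-0.24 ± 0.07, adjusted p = 0.0473), and these calls were lost in 7 and 12 of 15 single-array omissions. Without the heart arrays high in hepatocyte markers, the heart difference was -0.25 and not called (adjusted p = 0.116). Liver Sult1d1, which sulfates catecholamines and related amines, followed the same order, with 9.06 to 9.66 in BPH and 8.59 to 8.87 in BPL (0.64 ± 0.11, adjusted p = 0.000729). Against BPN it was higher in BPH by 0.38 ± 0.11 (adjusted p = 0.0372), a call lost in 7 of 15 omissions.

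Sult5a1 rose in liver of BPL. Its arrays read 9.63, 9.44, 9.35, 8.55 and 9.11 in BPL, 8.13, 8.09, 7.77, 8.32 and 7.87 in BPN, and 8.16, 7.60, 8.16, 7.19 and 7.32 in BPH. The lowest BPL array lay above the highest array of the other strains. BPL exceeded BPN by 1.18 ± 0.20 (2.26-fold, adjusted p = 0.000643), and BPH lay below BPL by 1.53 ± 0.20 (2.89-fold, adjusted p = 4.19e-05).

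In kidney the BPL difference of Sult5a1 was -0.02, and the liver minus kidney difference was 1.196 ± 0.243 (adjusted p = 0.00166). In aorta Sult5a1 was instead highest in BPH, with 7.770, 7.9998 and 8.211 as the lowest, median and highest array, against 6.77, 7.32 and 7.75 in BPL and 7.04, 7.41 and 7.80 in BPN. All BPH arrays lay above all BPL arrays. BPH exceeded BPL there by 0.67 ± 0.13 (adjusted p = 0.000459) and BPN by 0.56 ± 0.15 (adjusted p = 0.014; 0.47 and 0.0668 without aorta array BPN 14). The BPL effect was lower in aorta than in liver by -1.28 ± 0.26 (adjusted p = 0.00058), and the BPH effect was higher by 0.91 ± 0.26 (adjusted p = 0.02).

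Sult1c2 moved in opposite directions in liver and kidney of BPH. In liver it read 5.46 to 6.33 in BPH, 5.57 to 6.01 in BPL and 4.60 to 5.45 in BPN, and rose by 0.76 ± 0.17 in BPH (adjusted p = 0.00947) and 0.75 ± 0.17 in BPL (adjusted p = 0.00959). In kidney it fell in BPH, from 11.81 to 12.00 in BPN to 11.52 to 11.68 (-0.28 ± 0.06, adjusted p = 0.00579; 0.228 in the joint fit of all groups). The liver minus kidney difference was 1.04 ± 0.20 in BPH (adjusted p = 0.000931).

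The other sulfotransferase calls were less stable. Sult1e1, the oestrogen sulfotransferase, read 3.57, 2.78, 3.65, 2.64 and 4.68 in BPH liver against 2.33 to 2.66 in BPN (0.93 ± 0.26, adjusted p = 0.036). The call was lost in 8 of 15 single-array omissions and with a pseudocount of 16 (0.36, adjusted p = 0.113). In BPH aorta it was higher by 0.57 ± 0.16 (adjusted p = 0.0172; 0.51 and 0.0632 without BPN 14; 0.22 with a pseudocount of 16). Sult2a7, of the hydroxysteroid subfamily, was lower in BPH liver than in BPN (-1.03 ± 0.30, adjusted p = 0.0422), which was also lost in 8 omissions and with a pseudocount of 16 (-0.39, adjusted p = 0.206). Sult4a1 was called in BPL kidney (0.39 ± 0.11, adjusted p = 0.0415) and lost in 10 of 14 omissions and with a pseudocount of 16 (0.15, adjusted p = 0.0781). The call was also lost without the kidney arrays high in adrenal markers (0.42, adjusted p = 0.133). The dimmer of the 2 Sult1b1 probe sets was lower in BPH liver (-0.36 ± 0.11, adjusted p = 0.0433), and the brighter one was not called. Sult1c1, Sult2a1, Sult2a2, Sult2a6, Sult2a8, Sult2b1, Sult3a1 and Sult3a2 changed in no comparison. Their largest difference was -0.45 ± 0.32 (Sult2a8, aorta, BPH against BPL).

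Other markers moved with the liver comparisons. In liver, 8 of 10 measured macrophage markers were lower in BPH than in BPN and 8 of 10 in BPL, with a mean marker level of 7.05 to 7.33 in BPN, 6.48 to 6.80 in BPH and 6.67 to 6.79 in BPL. In heart 5 of the 10 were lower in BPH and 7 in BPL, and in kidney 4 were lower in BPH. Of all named genes, 9.1% were called in BPH liver and 9.41% in BPL liver against BPN. The shares were 8.47% in BPH heart, 11.3% in BPL heart and 8.58% in BPH kidney. The part of the macrophage markers in the results was not tested. The mean level of 10 pericentral hepatocyte markers in liver was 9.01 to 9.30 in BPH, 8.83 to 9.01 in BPN and 8.82 to 8.97 in BPL, and every BPH array lay above every array of the other strains. Against BPN, 2 of the 10 were higher in BPH (Glul and Rhbg; 9.1% of named genes were called), and 2 were higher and 2 lower in BPL (9.41%). The mean level of 8 periportal markers was 10.60 to 10.81 in BPH, 10.62 to 10.78 in BPN and 10.60 to 10.87 in BPL. The part of these markers in the liver results was not tested. The mean hepatocyte marker level in liver was 12.89 to 12.99 in BPH, 12.76 to 12.93 in BPL and 12.93 to 13.02 in BPN.

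The genes that supply the cofactors were read from a list of 15, of which 13 were measured. For such lists the background is the share of the 19147 named genes called, each read by its brightest probe set. Against BPN it was 11.7% for BPH aorta, 12.9% for BPL aorta, 8.47% for BPH heart, 11.3% for BPL heart, 8.58% for BPH kidney, 7.77% for BPL kidney, 9.1% for BPH liver and 9.41% for BPL liver. Papss2, which makes the sulfate donor PAPS, was lower than in BPN in aorta (BPH -0.38 ± 0.10, adjusted p = 0.0192; BPL -0.54 ± 0.10, adjusted p = 0.000699) and heart (BPH -0.44 ± 0.09, adjusted p = 0.00273; BPL -0.54 ± 0.09, adjusted p = 0.000333). It was also lower in liver (BPH -0.30 ± 0.08, adjusted p = 0.0253; BPL -0.33 ± 0.08, adjusted p = 0.0131), and was not called in kidney. In BPL liver 4 of the 13 fell and none rose: Papss1, Papss2, the transporter gene Slc35b1 and Ugdh, which makes UDP-glucuronic acid, beside 9.41% of the 19147 named genes called.

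In BPH aorta 3 of 13 rose (Gclc, Gsr and Gss, of glutathione synthesis and recycling) and 1 fell (Papss2), beside 11.7% of named genes. Gss, the glutathione synthetase, rose in BPH in aorta (0.81 ± 0.10, adjusted p = 1.1e-06), kidney (0.36 ± 0.06, adjusted p = 0.000737) and liver (0.37 ± 0.09, adjusted p = 0.0142). Of the 11 measured genes of conjugate removal, 4 rose and none fell in BPH kidney (8.58% of named genes): Abcc2 and Abcc4, which export conjugates, the uptake carrier gene Slco1a1, and Gusb, the glucuronidase that splits glucuronides, which rose by 1.78 ± 0.12 (adjusted p = 3.66e-08). Abcc2 rose also in BPL kidney (1.14 ± 0.14, adjusted p = 3.85e-05). Of the 11, none was called in heart of either strain or in aorta of BPH.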

How the data were processed

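RNA from 4 tissues of 3 strains was measured on 67 single-colour arrays. The deposited values are linear intensities (1.8 to 22648), normalised by the authors with RMA, per the submitters' processing notes; its version and the genome build of the array are not given in the sources used here. Gene names come from the platform's probe-to-gene table: 24478 probe sets had 1 symbol, 65 several and 13842 none.

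Values were taken as log2 with no pseudocount. Each tissue was fitted with its 3 strains in limma 3.58.1 (R 4.3.3), with Benjamini-Hochberg adjustment over all 38385 probe sets. Differences between liver and kidney were tested as an interaction. The script was tested on simulated data. Members and gene lists were chosen with earlier results of these data known. Genes were named where called, with up to 5 per family and direction in a comparison; other members and pathway genes are given as counts or with values chosen after they were seen.

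Alternatives were array weights, a joint fit of all 12 groups, a trended robust prior, quantile normalisation, median centring, a pseudocount of 16, a filter keeping the brighter 50% of probe sets, 1 probe set per gene, a replicate block and leaving out single arrays. Leaving out arrays over 1 above their tissue mean in hepatocyte or adrenal markers, and the interactions of aorta and heart with liver and kidney, were added after seeing the data. Replicate numbers were not used to pair arrays across strains or tissues in the main fits. The number of arrays limits the precision.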

Additional observations from a re-analysis of the deposited data

Results flagged for a closer look

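Within groups of 4 to 10 arrays, 9 of the 141 groups tested (6.38%) had an array far from the others by Dixon's criterion, which chance gives in about 1 group in 20. In heart these were Gstp3 on BPL array 4 (6.806), Gstm7 on BPN array 2 (8.522) and BPL array 2 (9.093), Sult1a1 on BPL array 1 (6.955) and Gstt1 on BPH array 1 (8.673). In kidney it was Ugt2b38 on BPH array 3 (12.85). In liver they were Gstm6 on BPH array 5 (8.909), Sult1e1 on BPL array 3 (2.069) and Gstt3 on BPH array 3 (9.078).

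The strain difference was not the same in liver and kidney for 7 members in BPH against BPN (4.2% of all probe sets passed this test) and for 9 in BPL against BPN (4.74% of all). For BPH, the liver minus kidney difference was -1.935 for Ugt2b37, -0.8665 for Gstt2, -0.3427 for Ugt3a2, -0.5452 for Gstm6, -2.004 for Ugt3a1, 0.3831 for Gstm5 and 1.037 for Sult1c2. For BPL it was -0.3337 for Gstt1, -3.91 for Ugt2b37, 1.445 for Ugt2b34, -0.6943 for Gstt3, 1.333 for Gstp3, 1.196 for Sult5a1, -1.762 for Ugt2b5 and 0.7318 for Sult1c2. The ninth was Gstm5 (0.30 ± 0.09, adjusted p = 0.0423 in limma). The call of Sult1c2 in BPL was lost in 6 of 15 single-array omissions, and that of Gstt1 without BPN 1 or BPL 2.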

How the results depend on the processing

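Of 78 differences named within a tissue, 45 kept their call under every alternative that could be fitted, and 8 of 15 between liver and kidney did. None changed direction. By setting, calls were lost for 24 of 93 in the joint fit of all groups, 10 of 78 with a pseudocount of 16, 9 of 81 with the replicate block, 8 of 93 with the trended robust prior, 6 of 78 with median centring, 5 of 78 with array weights, 2 of 78 with quantile normalisation, 4 of 28 without the arrays high in hepatocyte markers and 2 of 20 without those high in adrenal markers. The filter on low values (62) and 1 probe set per gene (78) ended none.

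The number of members called in aorta was 3 in BPL against BPN, 5 with array weights or with 1 probe set per gene, and 6 in the joint fit of all groups. In aorta BPH against BPN it was 6, and 10 in the joint fit, and in BPH against BPL it was 3, and 5 without the array high in hepatocyte markers. The joint fit called 3 in place of 7 in heart BPL against BPN, and 5 in place of 9 in the liver minus kidney difference of BPL. The cause was not tested.

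Leaving out single arrays gave counts of 4 to 8, 2 to 4 and 3 to 5 in aorta (BPH against BPN, BPL against BPN, BPH against BPL), then in heart 2 to 4, 4 to 8 and 4 to 6. In kidney they were 4 to 5, 6 to 8 and 6 to 10. Liver gave 7 to 14, 7 to 10 and 6 to 11. For the liver minus kidney differences they were 6 to 8 in BPH and 6 to 9 in BPL.

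Deviations of arrays with the same replicate number were weakly correlated at most. Between strains, the correlation exceeded 0.1 for 4 of 15 pairs in heart, 1 of 13 in kidney and 3 of 15 in liver. Between kidney and liver of a strain it exceeded 0.1 for 5 of 14 pairs and ranged from -0.06 to 0.21. The consensus correlation of kidney and liver arrays was 0.076, and the main liver minus kidney fit treated these arrays as separate. With the replicate number as a block, the counts in the same order were 2, 5 and 5 (heart), 4, 7 and 7 (kidney), and 11, 10 and 11 (liver). No block could be fitted in aorta, where strains share at most 1 number. Low signal limits many members: of 17 sulfotransferase probe sets, 11 (heart, kidney) or 12 (aorta) lay below the highest lower quartile, as did 8 of 9 glucuronosyltransferases in aorta.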

Other observations

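Conjugating enzymes outside the 3 families also differed between strains, read from a list of 15 of which 14 were measured. Mgst3, a membrane-bound glutathione transferase and peroxidase, rose in BPH in kidney (1.05 ± 0.05, limma adjusted p = 1.11e-09) and in liver (1.16 ± 0.11, adjusted p = 6.31e-07), and fell in BPL liver (-0.46 ± 0.11, adjusted p = 0.0116). Tpmt, which methylates thiopurines, rose in BPL in liver (1.22 ± 0.09, adjusted p = 8.61e-09) and kidney (0.53 ± 0.08, adjusted p = 0.000188). In liver 3 of the 14 rose and none fell in BPH (Mgst3, Nat1, Nnmt; 9.1% of named genes were called), and in BPL 3 rose and 2 fell (9.41%). These genes were singled out after their values were seen.

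Of 18 measured genes that respond to NRF2, the regulator of the antioxidant response, 4 rose and 1 fell in BPH kidney and 1 rose and 2 fell in BPL kidney (8.58% and 7.77% of named genes). In liver 3 rose and 1 fell in BPH (9.1% of named genes), and 2 rose and 1 fell in BPL (9.41%). Of 16 measured genes that respond to the receptors CAR, PXR and AHR, 1 rose and 2 fell in BPH liver (9.1% of named genes) and 3 rose and 3 fell in BPL liver (9.41%).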
